A study of Saccharomyces cerevisiae with 2 samples.

Results

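The genes described here encode the mating pheromone signalling cascade of budding yeast. They were found by gene name in the annotation of the arrays, and all 10 were present among 5653 nuclear genes: GPA1, STE4, STE18, STE5, STE11, STE7, FUS3, KSS1, STE12 and SST2. The cells were of strain MDY510 and expressed histone H3 with a Myc tag. They had been arrested with alpha factor and received no galactose. Chromatin was sonicated, and DNA recovered with a monoclonal anti-Myc antibody (the IP, Cy5) was compared with input DNA (whole cell extract or WCE, Cy3) on tiling arrays. A single group of 2 arrays, replicates 1 and 2, shared 1 slide and had no dye swap, so a dye or slide effect and the IP cannot be told apart. There was no sample without the pheromone, without the tag or without the antibody, so the values give levels along the genes in arrested cells and no response to the pheromone. The labels do not say that the replicates came from separate cultures, and the spread that p-values are measured against may be technical.

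Alpha factor is the peptide that MATa cells sense through the receptor Ste2. The receptor is coupled to a heterotrimeric G protein, whose alpha subunit Gpa1 holds the beta subunit Ste4 and the gamma subunit Ste18 until the pheromone binds. Free Ste4-Ste18 recruits the scaffold Ste5, on which the kinases Ste11, Ste7 and Fus3 act in sequence. Fus3 and the related kinase Kss1 relieve the transcription factor Ste12 of its inhibitors, and Ste12 then switches on the mating genes, several genes of the cascade among them. Sst2 speeds the return of Gpa1 to its inactive state. Histone H3 is a core part of the nucleosome, and promoters of active yeast genes usually carry fewer nucleosomes than their coding regions.

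Each array carried 41775 probes for yeast sequence, with a median spacing of 257 nt, and 40890 were kept. The median processed signal of nuclear probes was 1594 and 1591 in Cy3 and 1630 and 1648 in Cy5 on the 2 arrays. Pearson's r between the arrays was 0.992 across probes, which are not independent. The SD of a nuclear probe between the arrays was 0.05, and the SD from probe to probe was 0.42 within either array. Values below are log2 ratios, Cy5 to Cy3, with the median of the array subtracted, so 0 is the typical probe, and errors are SDs over the 2 arrays. The number of arrays limits their precision.

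Mitochondrial DNA, which carries no histones, went against the channel labels. Its median ratio lay 4.84 ± 0.10 above that of nuclear probes, 28.7-fold brighter in the channel labelled IP. The channels are therefore called by their labels, and "higher" means brighter in the channel labelled IP. If the channels had been exchanged, each sign given here would turn.

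The cascade genes had 59 coding probes and 26 promoter probes. The array's annotation placed a probe inside a coding region, in a tandem promoter of 1 gene, or in a divergent promoter shared by a pair of genes. A coding probe of STE12 was left out because it was marked as an outlier, which left 58. The number per gene was uneven: STE5 and STE11 had 9 coding probes, STE12 and SST2 had 8 kept, and STE18 had 1. STE7 and STE11 had no probe annotated as promoter, so 8 genes had a promoter value. A coding value needed 2 probes, so 9 genes had a coding value and 7 had both.

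The loci were spread over 7 chromosomes. Coordinates are the array's own, and their genome build is not given here. The coding and promoter probes of GPA1 (YHR005C) ran from 113582 to 115631 on the minus strand of chromosome 8. Those of STE12 (YHR084W) ran from 273589 to 276149 on the plus strand of the same chromosome. STE4 (YOR212W) lay at 741605 to 744207 on chromosome 15, STE18 (YJR086W) at 585123 to 585916 on chromosome 10 and STE5 (YDR103W) at 657737 to 660932 on chromosome 4. STE7 (YDL159W) was on chromosome 4 too, at 172756 to 174057. STE11 (YLR362W) at 849914 to 851880 and SST2 (YLR452C) at 1039534 to 1041721 shared chromosome 12. FUS3 (YBL016W) lay at 191655 to 193485 on chromosome 2, and KSS1 (YGR040W) at 574677 to 576186 on chromosome 7. SST2 was, with GPA1, on the minus strand, and the other genes were on the plus strand. GPA1, KSS1, STE12 and SST2 had tandem promoters, and STE4, STE18, STE5 and FUS3 had divergent promoters shared with MGM1, YJR085C, ARX1 and PEP1.

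Promoters of the cascade were high and coding regions low. All 8 promoters were higher than the array median (limma, largest adjusted p = 0.0393), with a median of 0.57. Among all 5173 promoters 70.8% were called higher and 16.3% lower, and the median was 0.23. Of the 9 coding regions, GPA1 was higher and the other 8 were lower (limma, largest adjusted p = 4.35e-06), with a median of -0.14. Among all 4996 coding regions 34.9% were called higher and 49.1% lower, with a median of -0.04. In all 7 genes with both values the promoter lay above the coding region (limma, largest adjusted p = 2.04e-05), with a median difference of 0.76. That difference was called positive in 71.9% and negative in 17.9% of 4575 genes, whose median was 0.25.

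These calls rested on a small spread between the arrays. The common SD drawn from all genes was 0.03 for coding regions and 0.05 for promoters, so differences of that order passed. With normexp background correction of the raw signals in place of the scanner's processed signals, the correlation between the arrays was 0.285. No member promoter, coding region or difference was then called by limma after adjustment, and at an unadjusted p under 0.05 there were 2 promoters, 6 differences and 1 coding region (lower). Over all genes the same threshold gave 705 of 5173 promoters and 756 of 4575 differences higher and 520 of 4996 coding regions lower. All 8 promoters and all 7 differences were still positive, with medians of 0.28 and 0.42.

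**Figure D1:**
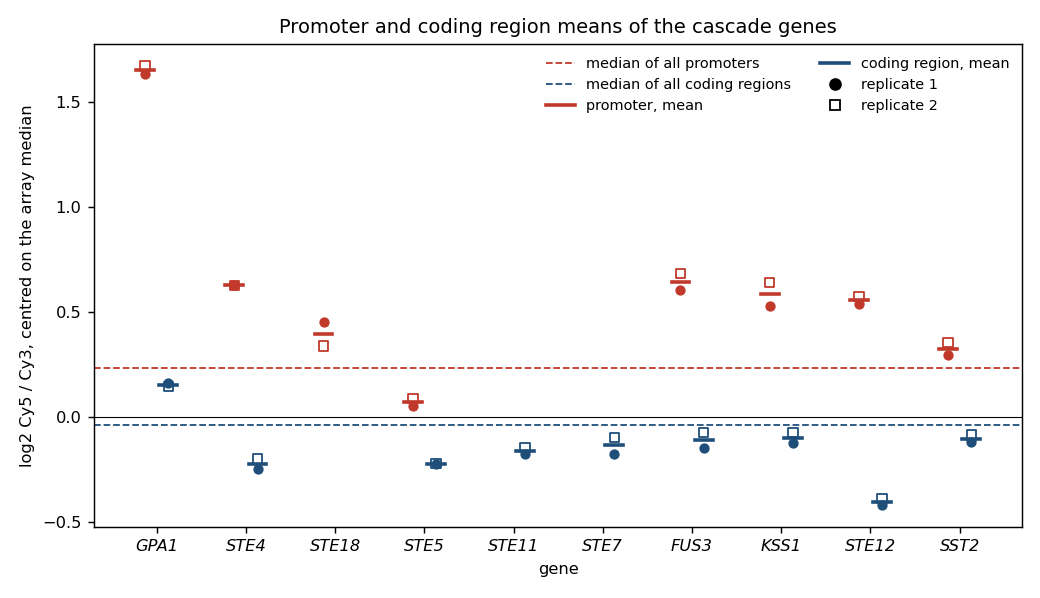
Mean log2 ratio of the promoter (red) and the coding region (blue) of each cascade gene, with a filled circle for replicate 1, an open square for replicate 2 and a bar for their mean, and dashed lines at the medians of all promoters and all coding regions. GPA1 has the highest promoter at 1.65, the STE5 promoter lies below the typical promoter at 0.07, and STE12 has the lowest coding region at -0.40.

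The G protein subunits differed most at GPA1. The promoter of GPA1, the alpha subunit, gave 1.63 in replicate 1 and 1.67 in replicate 2, a mean of 1.65 ± 0.03 or 3.14-fold over the array median. It ranked 31 of 5173 promoters. Both arrays placed it above every other promoter of the cascade, 1.01 ± 0.03 over the next, that of FUS3. Its 3 probes, centred 816, 640 and 418 nt before the first coding probe, gave 1.29 ± 0.04, 1.87 ± 0.06 and 1.80 ± 0.09. The whole promoter was therefore high, and the probe at 640 nt ranked 137 of 9074 promoter probes. That probe was saturated in at least 1 channel, which compresses a ratio.

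Among the 9 genes with a coding value, GPA1 was the only coding region above the array median. It gave 0.16 and 0.14, a mean of 0.15 ± 0.01 over 5 probes, and ranked 979 of 4996. Along the gene the probes alternated: the outermost gave 0.41 ± 0.02 and 0.31 ± 0.05, and the probe before the last gave -0.14 ± 0.02. With arrays centred on their mode, the coding value of 0.14 was no longer called (limma, adjusted p = 0.0504). The promoter exceeded the coding region by 1.47 and 1.53 on the 2 arrays, rank 21 of 4575.

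STE4 encodes the beta subunit, and its 6 promoter probes were shared with MGM1. The promoter gave 0.63 and 0.62, a mean of 0.62 ± 0.0013. The value was carried by a peak: the probe 500 nt before the first coding probe gave 1.45 and 1.53, a mean of 1.49 ± 0.06, and ranked 297 of 9074. Its neighbours gave 0.26 ± 0.08 at 830 nt and 0.74 ± 0.05 at 305.5 nt. The probe at 830 nt was dim, with processed signals of 294 and 269 in Cy3 and 344 and 335 in Cy5. That at 998.5 nt, saturated in at least 1 channel, read 0.67 in replicate 1 and 0.43 in replicate 2. The 4 probes nearer to MGM1 lay between 0.22 and 0.55, so the peak was on the STE4 side, 1065 nt from the first coding probe of MGM1. The coding region gave -0.25 and -0.20, a mean of -0.22 ± 0.03. Within it the second probe was at 0.27 ± 0.06 and the third at -0.64 ± 0.07, a step larger than the spread of either.

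STE18 encodes the gamma subunit and is short, with 1 coding probe at 0.08 and 0.11. Its promoter gave 0.45 and 0.34, a mean of 0.39 ± 0.08, the largest SD of the cascade promoters. The spread came from the probe nearest YJR085C, saturated in at least 1 channel, which read 0.46 in replicate 1 and 0.06 in replicate 2. The remaining probes differed less, 0.52 ± 0.03 at 472 nt and 0.40 ± 0.02 at 168.5 nt before the gene.

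The scaffold gene STE5 had the lowest promoter of the cascade. It gave 0.05 and 0.09, a mean of 0.07 ± 0.03 (limma, adjusted p = 0.0393), and this call was lost when arrays were centred on their mode (0.05, adjusted p = 0.517). It lay below the typical promoter, by 0.16 and 0.17 on the 2 arrays (limma, adjusted p = 0.000293), and with the median of the probes this call was lost too (-0.03, adjusted p = 0.182). It was the only cascade promoter there, since the other 7 lay above the typical one (limma, largest adjusted p = 0.0118, for STE18), where 43.7% of all promoters were called higher and 43.9% lower. The 3 probes of this divergent promoter differed in sign: -0.34 ± 0.04 nearest ARX1, then 0.34 ± 0.07 and 0.21 ± 0.04 towards STE5. The coding region gave -0.23 and -0.22, a mean of -0.22 ± 0.0015 over 9 probes. It was not evenly low. The fifth and sixth probes gave -0.73 ± 0.01 and -0.77 ± 0.06, and the eighth gave -0.01 ± 0.02 and was not called. The ninth was saturated in both channels on both arrays and is not read.

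The MAP kinase kinase kinase gene STE11 gave -0.18 and -0.15 in its coding region, a mean of -0.16 ± 0.02 over 9 probes. A low stretch ran from the fourth to the seventh probe, from -0.36 ± 0.02 to -0.64 ± 0.05. The eighth probe then read 0.28 and 0.47, a mean of 0.38 ± 0.13 and the second highest coding probe of the cascade. Over the median of its probes in place of their mean, STE11 was at -0.04 and not called (limma, adjusted p = 0.209). The third and ninth probes were saturated in both channels on both arrays and were kept in the mean and the median. In replicate 2 the median was the ninth probe itself, at -0.06. Both downstream probes were low, -0.30 ± 0.01 and -0.43 ± 0.0025.

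STE7 encodes the MAP kinase kinase. Its coding region gave -0.18 and -0.10, a mean of -0.14 ± 0.05 over 6 probes. The probes were flatter than those of STE11: 4 were lower, 2 were not called and none was higher, with the lowest at -0.39 ± 0.03. The second probe, 1 of those called lower, was dim and differed in sign, -0.19 in replicate 1 and 0.03 in replicate 2. Its call (limma, adjusted p = 0.0338) used the spread common to all probes. Sequence upstream of both genes was annotated as coding for small open reading frames. The probe of YDL159W-A, 509 nt before STE7, gave 0.43 and 0.48, above all 6 coding probes of STE7. Before STE11, the probes of YLR361C-A gave 0.20 ± 0.03 at 386.5 nt and -0.40 ± 0.01 at 560 nt.

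**Figure D2:**
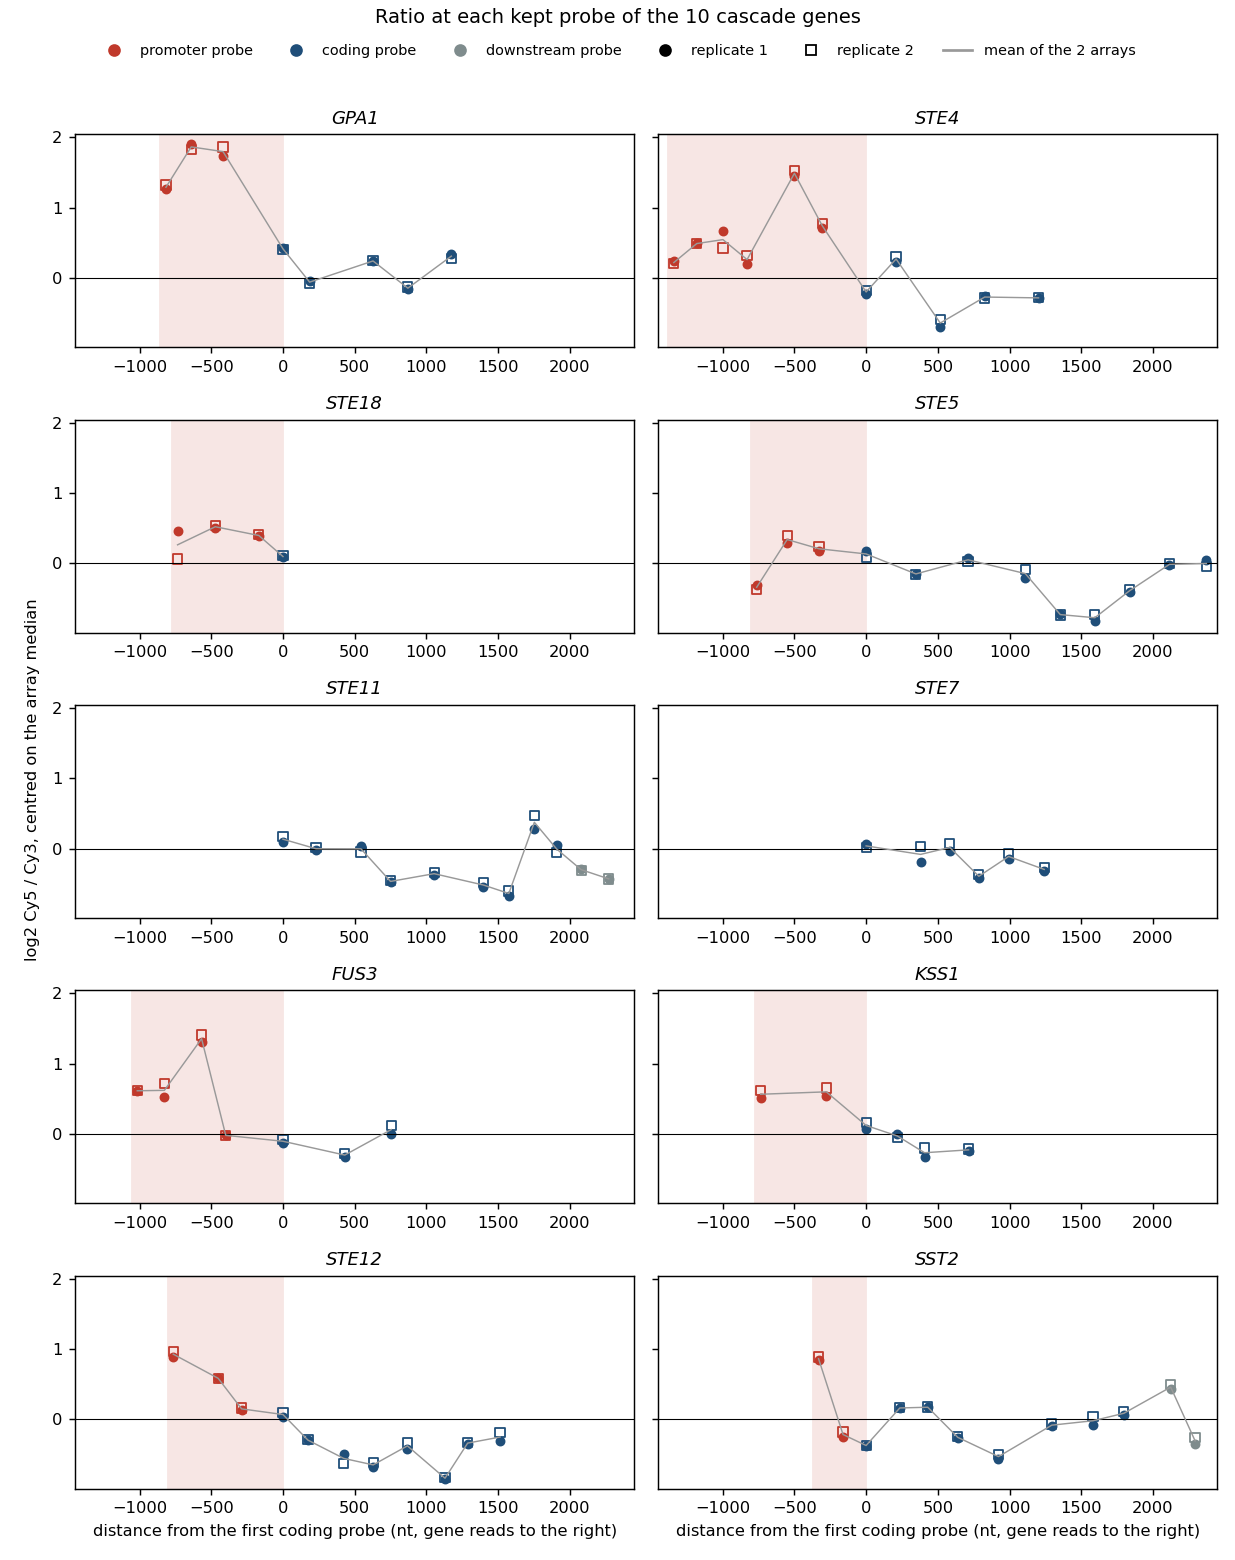
Log2 ratio at each kept probe of the 10 genes against its distance in nt from the first coding probe, each gene drawn so that it reads to the right, with promoters shaded, circles for replicate 1, squares for replicate 2 and a line through their means. Peaks stand at 640 nt before GPA1 (1.87), 500 nt before STE4 (1.49) and 567.5 nt before FUS3 (1.36), and the troughs lie inside STE12 (-0.84) and STE5 (-0.77).

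FUS3 and KSS1 encode the MAP kinases of the cascade, and their region means were close. The FUS3 promoter gave 0.61 and 0.68, a mean of 0.64 ± 0.05, and the KSS1 promoter gave 0.53 and 0.64, a mean of 0.58 ± 0.08. Their coding regions gave -0.15 and -0.08 for FUS3 and -0.12 and -0.08 for KSS1. FUS3 minus KSS1 was 0.06 ± 0.03 for the promoter and -0.01 ± 0.02 for the coding region, both within 2 standard errors of the common spread. These intervals do not show that the values are alike, only that 2 arrays did not separate them. The promoter minus coding difference was 0.76 ± 0.00053 for FUS3 and 0.68 ± 0.04 for KSS1, just past that limit.

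The shapes of these promoters were less alike than their means. FUS3, whose promoter is shared with PEP1, had a peak of 1.36 ± 0.08 at 567.5 nt. The next probe, at 399 nt, read -0.02 ± 0.0023, below the peak on both arrays. That probe was among the dimmest of the arrays, with processed signals of 103 and 88 in Cy3 and 103 and 87 in Cy5. KSS1 had 2 promoter probes at 0.57 ± 0.08 and 0.60 ± 0.08, with no peak between them that these probes could show. The first of these, at 735.5 nt, was dim too, with processed signals of 136 and 149 in Cy3 and 197 and 229 in Cy5. The coding probes of KSS1 went from 0.12 ± 0.06 at the start to -0.27 ± 0.10 and -0.23 ± 0.02 at the end.

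STE12, the transcription factor at the end of the cascade, had the lowest coding region of the 9. It gave -0.42 and -0.39, a mean of -0.40 ± 0.02 over 8 probes, and ranked 4905 of 4996 coding regions. It lay 0.18 ± 0.02 below the next, STE5. Of its probes 7 were lower and the first, 0.07 ± 0.04, was not called. From there the ratio fell to -0.65 ± 0.05 at the fourth probe and -0.84 ± 0.02 at the sixth, the lowest coding probe of the cascade. The last probe, which was left out, read 0.33 and 0.27. The promoter gave 0.53 and 0.57, a mean of 0.55 ± 0.03, and declined towards the gene, from 0.93 ± 0.06 at 765 nt through 0.58 ± 0.0017 at 452 nt to 0.15 ± 0.02 at 288.5 nt. The difference between promoter and coding region, 0.96 ± 0.0042, was second to that of GPA1.

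SST2, whose product is a negative regulator of the G protein, had a promoter at 0.29 and 0.35, a mean of 0.32 ± 0.04. The mean joined unlike probes. The probe at 331.5 nt read 0.84 and 0.89, and that at 161 nt read -0.25 and -0.18. With probes of 60 nt alone the promoter rested on the second of these and was called lower, at -0.18 ± 0.04 (limma, adjusted p = 7.21e-10). The coding region gave -0.12 and -0.09, a mean of -0.11 ± 0.02, with a low first probe at -0.37 ± 0.00058 and a minimum of -0.53 ± 0.04 at the fifth of 8. Downstream, the probes gave 0.46 ± 0.05 and -0.31 ± 0.07.

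The order of the promoters was GPA1, FUS3, STE4, KSS1, STE12, STE18, SST2 and STE5. GPA1 was separated from FUS3, STE12 from STE18 and SST2 from STE5 by more than 2 standard errors of the common spread. That spread is a single value for all genes. STE12 minus STE18 was uneven, 0.08 and 0.24 on the 2 arrays, with an SD of 0.11 beside the common 0.05. Neighbours from FUS3 to STE12 were not separated, nor were STE18 and SST2. The order of the coding regions was GPA1, KSS1, SST2, FUS3, STE7, STE11, STE4, STE5 and STE12. There, GPA1 was separated from KSS1, STE11 from STE4 and STE5 from STE12. No step from KSS1 through SST2, FUS3 and STE7 to STE11 was beyond the spread, and neither was that from STE4 to STE5. The promoter minus coding differences ran from GPA1 through STE12, STE4, FUS3, KSS1 and SST2 at 0.43 ± 0.02 to STE5 at 0.29 ± 0.02. Each step was beyond 2 standard errors of the common spread. The smallest, from FUS3 to KSS1, was 0.11 and 0.04 on the 2 arrays, with an SD of 0.04 beside the common 0.03.

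Against the typical coding region in place of the typical probe, GPA1 was 0.19 ± 0.03 higher and the other 8 genes were lower, from -0.06 ± 0.01 for KSS1 to -0.37 ± 0.0015 for STE12 (limma, largest adjusted p = 0.000618). Of all coding regions 44.4% were called higher and 44.3% lower on this measure. That even division follows from subtracting the median of all coding regions. The 8 lower cascade genes were the same as against the array median, so this is the same result with another zero.

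Single probes showed the same split. Of the 26 promoter probes, 23 were higher, 2 were lower and 1 was not called, or 88.5% higher, where 66.3% of all promoter probes were higher and 20.1% lower. Of the 58 coding probes, 12 were higher, 33 lower and 13 not called, or 56.9% lower, where 30.7% of all coding probes were higher and 45.4% lower. Their medians were 0.56 and -0.13. Promoter probes of the cascade reached from -0.34 in STE5 to 1.87 in GPA1, and coding probes from -0.84 in STE12 to 0.41 in GPA1. The probes of a gene are neighbours on the chromosome and are not replicates. Every probe was called against a single spread common to all probes, which a disagreement between its own arrays did not widen. Saturation touched 3 of the promoter probes and 7 of the coding probes. At 3 of the latter, 2 in STE11 and 1 in STE5, both channels were saturated on both arrays, and their ratios near 0.04 and -0.05 were close to the medians of all 1087 such probes, 0.07 and -0.04.

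The ratio of a coding probe varied with its place along the gene, in the cascade and elsewhere. Over all genes the mean ratio went from 0.06 at the coding probe nearest an end to -0.21 at the fourth and further from either end. In the cascade the same places gave -0.0010 ± 0.01 and -0.51 ± 0.04. The latter came from 11 probes of STE5, STE11, STE12 and SST2 alone, which ran from -0.84 to -0.15. No other cascade gene had a coding probe that far from both ends. Of the 8 cascade genes with 4 or more coding probes, 6 (75%) were lower inside than at their outermost probes, as were 68.4% of 3507 such genes. The inner minus outer difference was -0.54 ± 0.03 in STE12, -0.37 ± 0.09 in STE5, -0.35 ± 0.03 in GPA1 and -0.29 ± 0.04 in STE11. Of the outermost probes, both of STE5, the last of GPA1 and of STE11 and the first of STE7 were saturated, those at the ends of STE5 and STE11 in both channels, which draws a ratio towards 0. KSS1 gave -0.09 ± 0.01, STE7 gave -0.01 ± 0.08, and in STE4 and SST2 the sign was the other way, at 0.03 ± 0.01 and 0.05 ± 0.01. With each probe's place subtracted, STE12 was at -0.29 ± 0.0043 and STE4 at -0.20 ± 0.01. STE5 moved to -0.13 ± 0.02 and STE11 to -0.07 ± 0.0048, and SST2, at -0.02 ± 0.01, was not called (limma, adjusted p = 0.111).

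Upstream, the cascade departed from all genes most at the second probe before the coding region. There the 8 cascade promoters averaged 0.95 ± 0.04, from 0.34 in STE5 to 1.87 in GPA1, and all genes averaged 0.37. At the probe nearest the coding region the averages were 0.46 ± 0.04 and 0.25, and at the third 0.50 ± 0.0009 and 0.45. Of the 26 promoter probes, 17 lay above the mean of all genes at their place, and of the 58 coding probes 23 did.

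**Figure D3:**
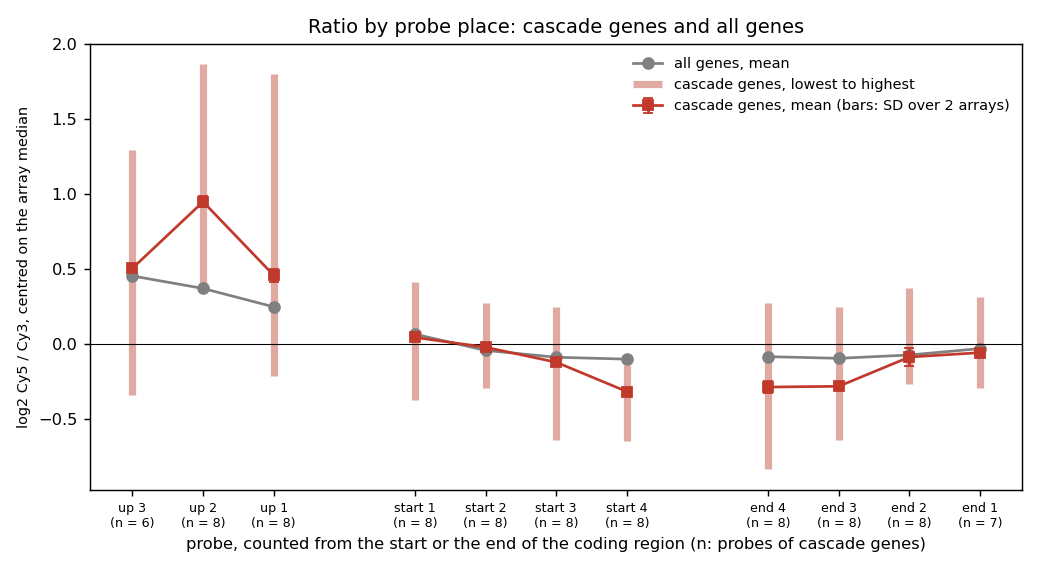
Mean log2 ratio by place of the probe, counted upstream ("up") from the coding region and inward from its start and its end, for the cascade genes (red squares, with the SD over 2 arrays as error bars and the range over genes as pale bars) and for all genes (grey circles). The cascade is furthest above all genes at the second upstream probe, 0.95 against 0.37, and below them at the fourth coding probe from the start, -0.32 against -0.10.

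The brightness of each channel differed between these loci. Relative to the nuclear median of its channel, the GPA1 promoter was at -1.15 ± 0.04 in Cy3 and 0.47 ± 0.04 in Cy5, so its high ratio joined a dim channel labelled WCE with a bright channel labelled IP. The means of the FUS3 and KSS1 promoters were low in Cy3, at -2.24 ± 0.09 and -1.83 ± 0.08. In Cy5 they were at -1.63 ± 0.07 and -1.28 ± 0.13. These means joined unlike probes. The FUS3 probe at 567.5 nt was at 0.18 and 0.10 in Cy5 on the 2 arrays. The KSS1 probe at 277.5 nt was at 0.31 and 0.47 there. The remaining probes of both promoters lay below the median in both channels. The mean of the SST2 promoter was at -1.36 ± 0.06 in Cy3 and -1.07 ± 0.06 in Cy5. The promoter of STE18 was brighter than the nuclear median in both channels, at 0.23 ± 0.11 and 0.59 ± 0.01. The STE12 coding region was close to the median in Cy3, at -0.01 ± 0.03, and below it in Cy5, at -0.44 ± 0.04. The part of probe brightness in the ratios was not tested.

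**Figure D4:**
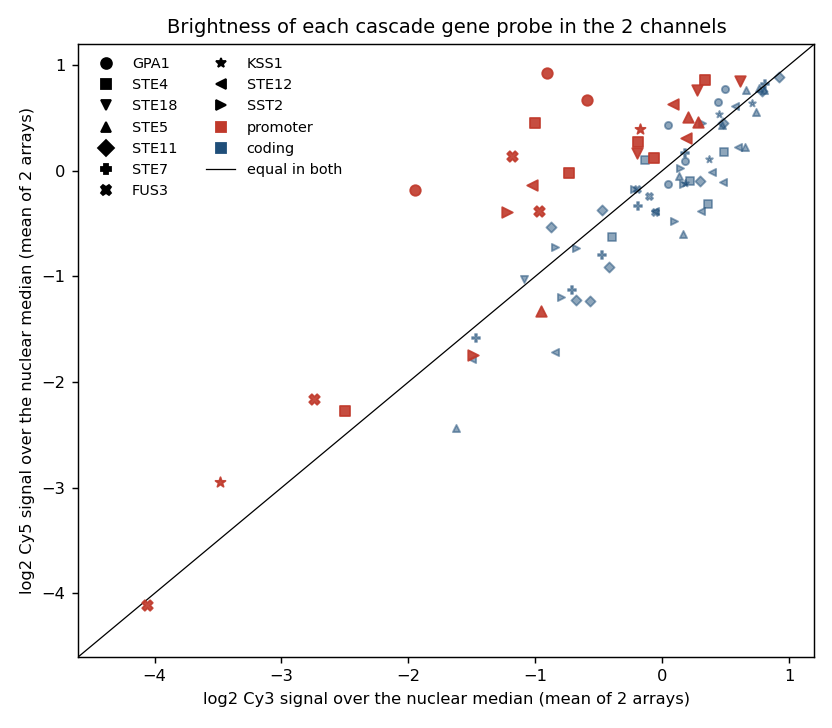
Log2 processed signal of each cascade probe over the nuclear median of its channel, Cy3 (labelled WCE) on the horizontal axis and Cy5 (labelled IP) on the vertical axis, as means of 2 arrays, with a line where both are equal, symbols for genes, red for promoters and blue for coding probes. The 3 GPA1 promoter probes lie far above the line, and the dimmest point is the FUS3 promoter probe at 399 nt.

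The partners of the divergent promoters were called lower in the coding regions that could be measured. Among all coding regions 49.1% were called lower, with a median of -0.04. MGM1, a mitochondrial dynamin-like GTPase, was at -0.20 ± 0.02, PEP1, a vacuolar sorting receptor, at -0.11 ± 0.03, and ARX1, a ribosome export factor, at -0.07 ± 0.02 (limma, largest adjusted p = 0.000644). YJR085C had too few coding probes for a value. Since each pair shares its probes, the promoter values of STE4, FUS3, STE5 and STE18 belong to their partners as well. The median of all divergent promoters was 0.29 and that of tandem ones 0.17.

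The genes most like GPA1, by the distance over its 4 values (promoter and coding region on each array) among 4575 genes, were VMA6 (distance 0.09), RPL6B (0.10) and IPT1 (0.19). VMA6 and RPL6B share a promoter, at 1.68 ± 0.04. Those most like STE5, the gene with the smallest difference, were FRE2 (0.02), YKU70 (0.02) and KEM1 (0.03).

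A further 58 genes of the pheromone pathway were counted, namely ligands, receptors and processing enzymes, polarity and kinase inputs, negative regulators, transcription factors and targets. Of 53 with a promoter value, 42 were higher, 6 lower and 5 not called, with a median of 0.50. Among all promoters 70.8% were higher and 16.3% lower, with a median of 0.23. Of 50 pathway genes with a coding value, 20 were higher, 21 lower and 9 not called, with a median of -0.01. Among all coding regions 34.9% were higher and 49.1% lower, with a median of -0.04. In 39 of 45 pathway genes the promoter lay above the coding region and in 6 below it, with a median of 0.45. Over all genes that difference was positive in 71.9% and negative in 17.9%, with a median of 0.25. The same shares stand beside the counts by role below, and the pathway genes were not tested as a set. With normexp background correction limma called 0 of the pathway genes' promoters, 1 coding region and 2 differences. Of all 5173 promoters it then called 0 after adjustment, beside 705 higher and 31 lower at an unadjusted p under 0.05.

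Among the ligands, receptors and processing enzymes 13 of 17 promoters were higher and 2 lower. They ran from MFA1, a gene of the a-factor pheromone, at 1.67 ± 0.03, to MF(ALPHA)1, a gene of alpha factor itself, at -0.29 ± 0.0038. Their coding regions ran from BAR1, the protease that degrades alpha factor, at 0.43 ± 0.14, to STE6, the exporter of a-factor, at -0.25 ± 0.02, with 5 of 15 higher and 5 lower. Of the polarity and kinase inputs 3 promoters of 5 were higher and 2 lower, between STE20, a p21-activated kinase, at 1.08 ± 0.05 and CDC24, a guanine nucleotide exchange factor, at -0.29 ± 0.05. Coding regions of this role were 2 higher and 3 lower of 6, and the lowest was BEM1, a polarity scaffold, at -0.29 ± 0.03.

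The negative regulators had 5 promoters of 6 higher and 1 lower. DIG1 and DIG2, paralogous inhibitors of Ste12, marked the ends at 0.97 ± 0.02 and -0.13 ± 0.03. The coding regions of this role were 4 higher and 1 lower of 6. They spanned 0.08 ± 0.0049 for GPA2 to -0.10 ± 0.02 for the phosphatase gene PTP3. GPA2 encodes another G alpha subunit, and its place among the negative regulators is only that of the list used here. All 3 promoters of transcription factors that work with Ste12 were higher, from TEC1 at 1.19 ± 0.06 to KAR4 at 0.82 ± 0.06. In their coding regions MCM1 was higher at 0.10 ± 0.01, and 2 were lower, down to KAR4 at -0.21 ± 0.03.

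Of the targets 18 promoters of 22 were higher and 1 was lower. They ran from AGA1, an anchor of a-agglutinin, at 1.37 ± 0.05 to PRM9 at -0.51 ± 0.05, each from 1 probe. Coding regions of targets were 8 higher and 10 lower of 20, between ASG7 at 0.77 ± 0.06 and PRM10 at -0.45 ± 0.02. No promoter of this list or of the cascade lay above MFA1, and that of GPA1 was next to it in rank, 31 of 5173 against 30.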

How the data were processed

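The deposited scanner files hold spot intensity values. Per the file headers, Agilent Feature Extraction 9.1.3.1 read the arrays (design 014810), subtracted background, detrended the signals and applied a linear dye normalisation. DNA was amplified linearly before labelling, per the labels' protocols, and biases of amplification or dye remain in the ratio. The deposited value table holds log2 ratios, not centred (medians 0.03 and -0.0017), which equal the log2 ratio of processed Cy5 over Cy3 to within 5.00e-06, so scale and direction are known. No sequence is printed because none was in the sources used here.

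From the processed signals, log2 Cy5 over Cy3 was taken and each array centred on its median. Control spots (3444), probes marked as outliers in either channel of either array and probes with Cy3 not well above background on both arrays were left out; saturated probes (11.5%) were kept. A coding value is the mean of 2 or more probes and a promoter value that of 1 or more, with divergent promoters given to both genes. Values of all genes and probes were tested against 0 with limma 3.58.1 (lmFit, eBayes) in R 4.3.3, Benjamini-Hochberg adjusted, threshold 0.05. The procedure was tested on simulated data. Mitochondrial genes were left out of gene fits. Locus tags came from the R64 gene table, whose coordinates were not used.

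The members and lists were chosen with earlier results of these data known. The text names the members, their divergent partners, the highest and lowest promoter and coding region of each role of the pathway list, and the 3 genes nearest to the members with the largest and smallest promoter minus coding difference. The highest coding region of the polarity and kinase inputs is not reported here. Alternatives changed the background correction, loess, centring, saturated spots, filter, probe length, summary, place correction and replicate.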

Additional observations from a re-analysis of the deposited data

How the results depend on the processing

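No paired analysis was possible because the arrays form a single group. With 2 arrays, leaving one out is a value with no test: the members' medians ranged from -0.18 to -0.10 (coding), 0.53 to 0.60 (promoter), 0.756 to 0.757 (promoter minus coding), -0.12 to -0.08 (coding against typical coding) and 0.32 to 0.34 (promoter against typical promoter), and all 41 single-gene values kept their direction. Without the filter on flagged and dim probes every call was kept.

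Normexp background correction of the raw signals, with or without loess, changed more calls than the other settings tried. It also left out the scanner's detrending and linear dye normalisation, so the effects of these steps cannot be told apart. With normexp alone, limma called 0 members in any of the 5 comparisons and 0 coding probes, 1 promoter probe higher and 0 lower; medians were 0.28 (promoter), 0.42 (difference), -0.040 (coding against typical) and 0.14 (promoter against typical). Of the pathway list, 0 coding regions were higher and 1 lower, 0 promoters were called, and 2 differences were positive and 0 negative. Signs turned, without a call, for the coding region of SST2 (0.0020), for STE7 (0.039), FUS3 (0.021) and SST2 (0.062) against the typical coding region, and for STE18 against the typical promoter (-0.052). With loess added the arrays correlated at 0.966, and 0 members, 0 member probes and 0 list genes were called; at an unadjusted p under 0.05 there were 1 promoter, 3 differences and 1 coding region (lower) of the members, and over all genes 85 of 5173 promoters and 693 of 4575 differences higher and 154 of 4996 coding regions lower. The medians were then -0.038 (coding), 0.19 (promoter), 0.19 (difference), -0.032 and 0.10 (against the typical regions); the list's coding median turned to 0.010, and STE5 and SST2 against the typical promoter turned to 0.00093 and -0.014. The cause was not tested.

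Centring on the mode left 0 coding regions higher and 5 lower, 13 list coding regions higher and 6 coding probes higher; FUS3 (-0.13), KSS1 (-0.12) and SST2 (-0.12) were no longer called, with adjusted p of 0.0621, 0.0978 and 0.0816. The list's coding median was 0.0032 without centring and 0.0050 without saturated probes. With 60-nt probes alone, which leave fewer probes, 5 promoters were higher and 1 lower, 1 difference was negative, 2 coding regions were above and 2 promoters below the typical ones, 3 list differences were negative and 10 promoter probes were higher; medians were 0.74 (difference) and 0.36 (promoter against typical). Signs turned for FUS3 coding (0.019, and 0.083 against typical), the STE5 promoter (-0.028) and SST2 (promoter -0.18, difference -0.11, promoter against typical -0.42). With the median of the probes the medians were 0.72 (difference) and 0.31 (promoter against typical), 6 coding regions were lower, STE11 (-0.04) and SST2 (-0.05) being lost, and no promoter was called below the typical one, 0 in place of 1; with the place correction the median difference was 0.78.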

Other observations

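Promoters of genes used by 1 mating type differed in this list, a pattern chosen after its values were seen. Genes that only a MATa cell expresses gave higher promoter values: MFA1 at 1.67 ± 0.03, MFA2 at 1.65 ± 0.03, the receptor gene STE2 at 1.38 ± 0.05, BAR1 at 1.08 ± 0.03, STE6 at 1.03 ± 0.04, AGA2 at 0.94 ± 0.03 and ASG7 at 0.39 ± 0.03. Genes that only a MATalpha cell expresses were lower, with MF(ALPHA)1 at -0.29 ± 0.0038, MF(ALPHA)2 at 0.06 ± 0.05, the a-factor receptor gene STE3 at 0.05 ± 0.05 and SAG1, alpha-agglutinin, at 0.20 ± 0.01. The lowest of the former lay above the highest of the latter on both arrays. The groups were picked from these same values, so this absence of overlap is no support for the pattern. ASG7 lay above 67.6% of all promoters and SAG1 above 46.0%. Among all promoters 70.8% were called higher and 16.3% lower. The values of MFA2 and BAR1 rested on 1 probe each. The promoters of STE2, STE6 and SAG1 are divergent, so their values belong to a neighbouring gene as well. The difference between the groups was not tested.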
